A study of Mus musculus with 43 samples.

Results

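The genes described here form the arm of striatal signalling that turns dopamine at its receptors into cyclic AMP (cAMP) and back. They are 9 of the 35825 genes listed for each cell: the dopamine receptor genes *Drd3* and *Drd5*, the G protein subunit genes *Gnal* and *Gng7*, the adenylyl cyclase gene *Adcy5*, the regulator *Rgs9*, the phosphodiesterase genes *Pde10a* and *Pde1b*, and *Ppp1r1b*, which encodes DARPP-32. They were chosen by name, for their role in the pathway. RNA came from 43 NAcLat→VTA neurons, which are cells of the lateral nucleus accumbens that were labelled by retrobeads injected into the ventral tegmental area. The cytosol of each cell was drawn into a patch pipette and sequenced as 1 library. REG cells (NORM in the labels, 23 cells) came from C57BL/6J mice on standard chow, and HFD cells (20 cells) came from mice that had both standard and high-fat chow for weeks. Batch 1 held 13 REG and 5 HFD cells, and batch 2 held 10 REG and 15 HFD cells. Mice of both sexes were used, and the cells of each diet came from several mice, but no mouse is named for any cell. A diet therefore counts as a single sample here, no test across cells was made, and intervals cover counting error only.

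In the striatum, dopamine at D1-type receptors activates the G protein Golf, whose alpha subunit is encoded by *Gnal* and whose gamma subunit is encoded by *Gng7*. Golf stimulates the adenylyl cyclase AC5 (*Adcy5*), and the cAMP it makes activates protein kinase A, which phosphorylates DARPP-32 (*Ppp1r1b*) and turns it into an inhibitor of protein phosphatase 1. Signalling is limited by RGS9, which speeds the shut-off of Gi-type and Go-type G proteins, and by phosphodiesterases, which break down cyclic nucleotides. Medium spiny neurons, the projection neurons of the striatum, are known for high levels of most of these proteins.

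Promoter windows are shown for 4 members. For *Adcy5*, *Gng7* and *Pde1b*, the most frequent transcript length in the counts was that of a transcript starting in the window, and for *Rgs9* the window lies next to the start of its long coding transcript. Each is a RefSeq window on GRCm38.p6, from 250 bases before to 50 bases after an annotated start, written 5′ to 3′ on the strand of the gene. The windows are chr16:35154614-35154913 (plus strand, *Adcy5*), chr10:81014876-81015175 (minus strand, *Gng7*), chr15:103502784-103503083 (plus strand, *Pde1b*) and chr11:109298132-109298431 (minus strand, *Rgs9*). Capitals mark, on either strand, the GC box with the letters GGGCGG, the box named for its letters CCAAT, and the TATA box with the letters TATAAA. On the opposite strand each is marked as its reverse complement, which is CCGCCC for the GC box.
Adcy5: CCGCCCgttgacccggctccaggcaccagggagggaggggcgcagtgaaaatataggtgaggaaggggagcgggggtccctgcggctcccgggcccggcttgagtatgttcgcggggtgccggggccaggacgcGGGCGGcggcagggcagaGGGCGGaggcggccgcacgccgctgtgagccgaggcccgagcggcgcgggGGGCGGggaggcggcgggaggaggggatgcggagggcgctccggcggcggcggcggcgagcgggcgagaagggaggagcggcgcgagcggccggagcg
Gng7: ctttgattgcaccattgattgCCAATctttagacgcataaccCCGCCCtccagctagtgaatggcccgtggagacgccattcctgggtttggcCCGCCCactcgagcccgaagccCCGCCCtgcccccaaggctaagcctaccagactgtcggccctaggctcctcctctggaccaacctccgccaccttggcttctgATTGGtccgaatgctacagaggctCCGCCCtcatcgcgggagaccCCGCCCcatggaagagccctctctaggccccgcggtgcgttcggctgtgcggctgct
Pde1b: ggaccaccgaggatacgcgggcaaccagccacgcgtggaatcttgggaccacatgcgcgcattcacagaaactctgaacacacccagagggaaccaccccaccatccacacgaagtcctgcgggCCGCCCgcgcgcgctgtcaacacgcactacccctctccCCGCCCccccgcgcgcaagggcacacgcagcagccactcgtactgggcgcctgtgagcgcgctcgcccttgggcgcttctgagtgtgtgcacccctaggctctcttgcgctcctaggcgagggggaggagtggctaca
Rgs9: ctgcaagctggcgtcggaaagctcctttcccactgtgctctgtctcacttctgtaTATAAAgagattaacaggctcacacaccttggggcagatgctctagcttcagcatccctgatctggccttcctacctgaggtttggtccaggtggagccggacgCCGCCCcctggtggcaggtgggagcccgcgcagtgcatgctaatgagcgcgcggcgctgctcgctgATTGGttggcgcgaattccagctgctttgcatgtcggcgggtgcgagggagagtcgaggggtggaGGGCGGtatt

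The *Adcy5* window was the richest of these in G and C, at 79.0% with 44 CpG dinucleotides and 4 GC boxes, against a median of 52.7% and 7 CpG dinucleotides over the 32851 mouse windows of the same length. The *Pde1b* window had 67.0%, 28 CpG dinucleotides and 2 GC boxes. The *Gng7* window had 63.7%, 20 CpG dinucleotides, 5 GC boxes and 2 CCAAT boxes. The *Rgs9* window had 60.3% and 19 CpG dinucleotides, and was the only one of the 4 with a TATAAA, beside 2 GC boxes and 1 CCAAT box. Over 11 windows read for 7 of the 9 members, the GC box was found in 7, the CCAAT box in 4 and TATAAA in 2, and these motifs stood in 35.7%, 37.4% and 13.6% of all mouse windows. The palindrome TGACGTCA, the cAMP response element, stood in 0 of the 11 windows and in 1.79% of all windows. Its core TGACG stood in 1 of the 11, the window of a second *Gng7* start, and in 20.8% of all windows. These counts describe letters in the windows and say nothing of binding. No window is shown for *Ppp1r1b*.

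The total count per cell ranged from 176961 to 16919555, with a median of 1426795, and counts fell on 6143 to 14279 genes. A single gene, *Lars2* (mitochondrial leucyl-tRNA synthetase), took 2.33% to 79.8% of the counts of a cell. Levels are given as counts per 1000000 counts of the cell (CPM), and levels of different genes are compared only in transcripts per 1000000 (TPM), which the authors corrected for transcript length. A gene was called expressed if 5 or more cells had over 15 CPM and its mean over cells was over 4 CPM, which 10802 genes met. Of the 9 members, 7 met it, and *Drd3* and *Drd5* did not. The labelled cell type was checked against markers that are not members: *Gad1* and *Gad2* (GABA synthesis) and *Drd1*, *Tac1* and *Pdyn* (D1 medium spiny neurons) had counts in 43 of 43 cells. The other D1 markers, *Isl1* and *Chrm4*, had counts in 36 and 26 cells. Of the D2 markers, *Penk* had counts in 35 cells and *Sp9* in 24. *Adora2a* had counts in 13 (5 REG, 8 HFD), *Drd2* in 9 (2 REG, 7 HFD) and *Gpr6* in 6 (3 REG, 3 HFD). Means in REG and HFD cells were 48.0 and 95.5 CPM for *Penk*, 3.97 and 10.5 for *Adora2a* and 0.528 and 7.67 for *Drd2*. They were 2.85 and 3.49 CPM for *Sp9* and 9.37 and 4.05 for *Gpr6*, and these differences were not tested. Of the cholinergic markers, *Slc5a7* had counts in 12 cells, *Chat* in 5 and *Slc18a3* in 0. *Drd1*, *Tac1* or *Pdyn* lay below 10 CPM in 5 cells. *Drd1* did in REG cells 10, 16 and 19, *Tac1* in REG cell 19 and HFD cell 13, and *Pdyn* in HFD cells 11 and 13. HFD cell 16 held *Penk* at 1254 CPM, and HFD cell 8 had 79.8% of its counts on *Lars2*. The diet ratios, the numbers of cells below 50 CPM and the covariation are also given without HFD cells 8 and 13, and without all 7 of these cells. Some other cells with D2 markers were kept. Among them were REG cell 1 (*Penk* at 576 CPM) and HFD cell 6 (*Penk* at 156, *Adora2a* at 52.8 and *Drd2* at 37.7 CPM).

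Per transcript length, *Ppp1r1b* was the most abundant member, with a median of 1188 TPM over 43 cells (interquartile range 734 to 1819), which placed it at rank 38 of the 10802 expressed genes. *Pde10a* followed at 324 TPM (86.8 to 621), *Rgs9* at 316 TPM (121 to 415) and *Pde1b* at 213 TPM (130 to 357). The *Pde10a* median was 621 TPM in batch 1 and 211 TPM in batch 2, beside 845 and 489 CPM, so its place differs by batch. *Gnal* had 118 TPM (58.3 to 182), *Adcy5* 114 TPM (57.4 to 193) and *Gng7* 77.1 TPM (37.2 to 114). All 7 therefore lay at or above the 89.9th percentile of expressed genes by median TPM. *Ppp1r1b* exceeded *Pde10a* in 39 of 43 cells, and their interquartile ranges did not overlap. All other neighbours in this order had overlapping interquartile ranges: *Pde10a* exceeded *Rgs9* in 23 of 43 cells, *Rgs9* exceeded *Pde1b* in 25, and *Gnal* exceeded *Adcy5* in only 19. *Adcy5* exceeded *Gng7*, the last in this order, in 30 of 43 cells. The rank of *Gng7* was 1624 in REG cells and 885 in HFD cells, the widest difference in rank between diets among the 7.

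**Figure D1:**
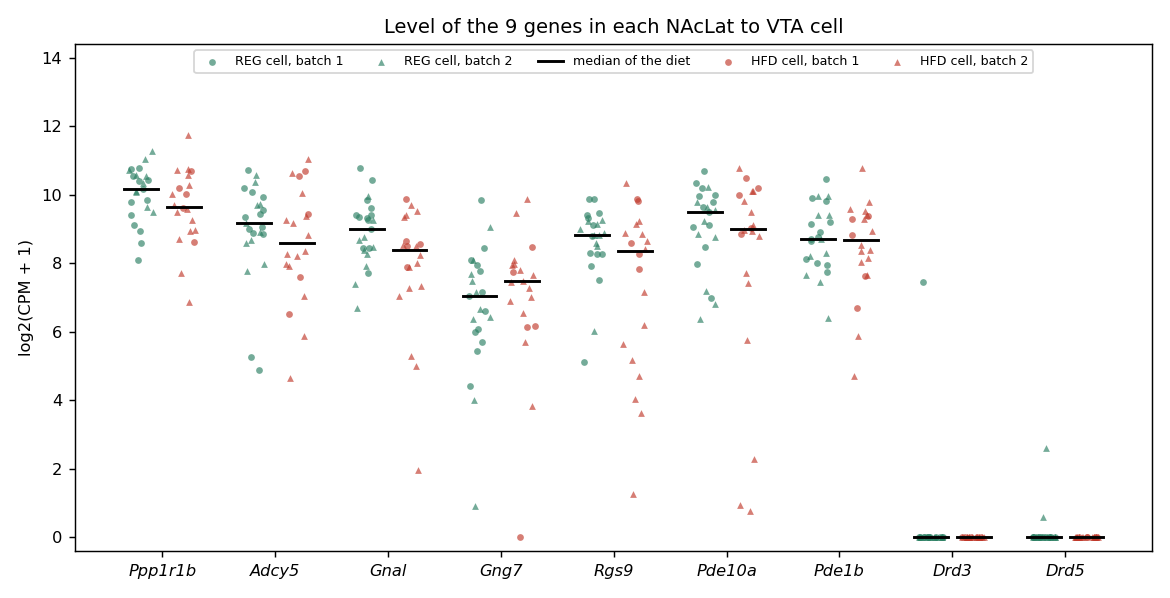
Level of the 9 genes in each of 43 NAcLat→VTA cells as log2(CPM + 1), with REG cells in green and HFD cells in red, batch 1 as circles and batch 2 as triangles, and the median of each diet as a bar. The 7 expressed members overlap between diets, the lowest points of *Rgs9*, *Pde10a* and *Gnal* are HFD cells of batch 2, and *Drd3* and *Drd5* lie at 0 in nearly all cells.

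The dopamine receptors among the members were rarely counted. *Drd3* (chr16:43754026-43822932, plus strand), an inhibitory D2-type receptor, had 236 counts (exact 95% Poisson interval 207 to 268), all in REG cell 2 of batch 1, where it reached 173 CPM. That cell also held *Drd1* at 243 CPM and *Ppp1r1b* at 556 CPM, and it was the only cell in which *Drd3* exceeded *Drd1* in TPM. It was counted in 1 of 23 REG cells (4.35%) and in 0 of 20 HFD cells, which allows a share of up to 15%, and no comparison of diets was drawn from so few cells. *Drd5* (chr5:38319367-38322518, plus strand), a D1-type receptor, had 10 counts (Poisson interval 4.80 to 18.4) in 2 REG cells of batch 2, 9 of them in REG cell 22 and 1 in REG cell 20. Its highest level was 5.06 CPM. It was counted in 0 of 20 HFD cells, and in 0 of 43 cells after thinning to 150000 counts. The receptor that all cells shared was *Drd1*, at a median of 101 TPM.

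*Gnal* encodes the alpha subunit of Golf. In REG cells it ranged from 103 to 1750 CPM with a median of 512, and in HFD cells from 2.91 to 946 CPM with a median of 331. The ranges overlapped, but 3 HFD cells and 0 REG cells lay below 50 CPM, and those 3 were all in batch 2. The mean was 586 ± 391 CPM in REG cells (SD, n = 23 cells) and 363 ± 273 CPM in HFD cells (SD, n = 20 cells). The log2 ratio of HFD to REG was −0.69 (−0.72 to −0.66 by the counting error of the summed counts alone). That interval is narrower than the counting error of a mean over cells of unlike depth. Batch 1 gave −0.66 and batch 2 gave −0.27, and values ran from −0.82 to −0.55 with any 1 cell left out. *Gnal* was the only one of the 7 members with the same sign in both batches, which 48.4% of expressed genes had. Summed counts over summed totals, which give deep cells more weight, turned its sign, to 0.26. REG cells also differed between batches, with a mean of 731 CPM over those of batch 1 and 397 CPM over those of batch 2, so the pooled ratio moves with the share of each batch in each diet.

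*Gng7* (chr10:80948624-81014945, minus strand) encodes the gamma subunit that pairs with Golf in the striatum. It ranged from 0.887 to 927 CPM with a median of 130 in REG cells, and from 0 to 936 CPM with a median of 176 in HFD cells. It was the only expressed member without a count in some cell, HFD cell 2, and had counts in the other 42 (97.7%). Mean levels were 184 ± 204 CPM (SD, n = 23 cells) and 222 ± 226 CPM (SD, n = 20 cells), and a single cell held 21.9% of the summed REG level and 21.1% of the summed HFD level. The log2 ratio was 0.28, with −0.51 in batch 1 and 0.64 in batch 2. Without HFD cell 20 it was 0.0085, and without REG cell 1 it was 0.57. *Gng7* was the only member whose pooled ratio was above 0.

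*Adcy5* (chr16:35154877-35305738, plus strand), the main adenylyl cyclase of the striatum, ranged from 28.2 to 1673 CPM with a median of 578 in REG cells, and from 24.2 to 2107 CPM with a median of 386 in HFD cells. Diets overlapped over nearly the whole range, with 2 REG cells and 1 HFD cell below 50 CPM. The means were 689 ± 438 CPM (SD, n = 23 cells) and 640 ± 613 CPM (SD, n = 20 cells), and the log2 ratio was −0.11. Batch 1 gave 0.25 and batch 2 gave −0.24, and the value was 0.04 without HFD cells 8 and 13. Within a cell, *Adcy5* supplied a median of 76.2% of the summed TPM of 9 adenylyl cyclase genes, a list that leaves out *Adcy4*. It was the highest of them in 38 of 43 cells (20 REG, 18 HFD).

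*Rgs9* (chr11:109225355-109298129, minus strand) ranged from 33.3 to 929 CPM with a median of 452 in REG cells, and from 1.42 to 1285 CPM with a median of 325 in HFD cells. It lay below 50 CPM in 1 REG cell (of 23) and in 6 HFD cells (of 20). All 6 were in batch 2, where 0 of 10 REG cells were that low, while 0 of 5 HFD cells of batch 1 were. The means were 467 ± 233 CPM (SD, n = 23 cells) and 361 ± 358 CPM (SD, n = 20 cells), a log2 ratio of −0.37, with 0.19 in batch 1 and −0.58 in batch 2. The spread was wider in HFD cells, with a coefficient of variation of 99.0% against 49.8% in REG cells. Of the 7 members, 6 had the higher coefficient of variation in HFD cells, as did 63.1% of the 10802 expressed genes.

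The phosphodiesterase *Pde10a* (chr17:8525372-8986648, plus strand), which breaks down cAMP and cGMP, ranged from 81.5 to 1652 CPM with a median of 724 in REG cells, and from 0.711 to 1741 CPM with a median of 513 in HFD cells. Most cells of both diets shared one range, and 3 HFD cells stood far below it. These were HFD cell 7 at 3.87 CPM, HFD cell 19 at 0.914 CPM and HFD cell 13 at 0.711 CPM, all in batch 2. HFD cell 19 had the highest *Adcy5* level of all 43 cells, so a near-absence of *Pde10a* counts did not go with a low level of the other members there. The means were 687 ± 420 CPM (SD, n = 23 cells) and 630 ± 506 CPM (SD, n = 20 cells), and the log2 ratio was −0.13, with 0.21 in batch 1 and −0.03 in batch 2.

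*Pde1b* (chr15:103503034-103530052, plus strand), a phosphodiesterase switched on by calcium and calmodulin, ranged from 83.8 to 1417 CPM with a median of 413 in REG cells, and from 24.9 to 1761 CPM with a median of 411 in HFD cells. Its medians were the closest between diets among the 7 members. The means were 521 ± 338 CPM (SD, n = 23 cells) and 492 ± 390 CPM (SD, n = 20 cells), and the log2 ratio was −0.08, with −0.43 in batch 1 and 0.11 in batch 2. Without REG cell 9 it was 0.04. Among 16 phosphodiesterase genes, *Pde10a* had the highest TPM in 21 cells and *Pde1b* in 15.

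*Ppp1r1b* (chr11:98348404-98357796, plus strand) ranged from 274 to 2489 CPM with a median of 1159 in REG cells, and from 116 to 3417 CPM with a median of 802 in HFD cells. No cell of either diet was below 50 CPM, which held for no other member. The means were 1191 ± 564 CPM (SD, n = 23 cells) and 1016 ± 748 CPM (SD, n = 20 cells), a log2 ratio of −0.23. In batch 1 the ratio was 0.0044 and in batch 2 it was −0.49, and without HFD cell 20, which held 16.8% of the summed HFD level, it was −0.42.

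Across the 7 expressed members, 0 passed a 2-fold ratio between diets in either direction. Over all 10802 expressed genes, 23.3% did, 9.04% higher and 14.3% lower in HFD cells. Within batch 1, 0 of 7 members and 42.2% of expressed genes passed it, and within batch 2, 0 of 7 and 34.6%. With the same sign in both batches, 18.2% of expressed genes passed it. The median absolute log2 ratio was 0.23 over the members and 0.54 over all expressed genes, many of which are lower in level than the members. The signed median was −0.13 over the members and −0.13 over all expressed genes, and 6 of 7 members lay below 0 beside 57.2% of expressed genes. In batch 1, 3 of 7 members were below 0 beside 52.6% of expressed genes, and in batch 2, 5 of 7 beside 56.2%. Fewer transcripts of a gene and less RNA drawn from a cell cannot be told apart for a single gene, and shares of the total also move with *Lars2*.

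**Figure D2:**
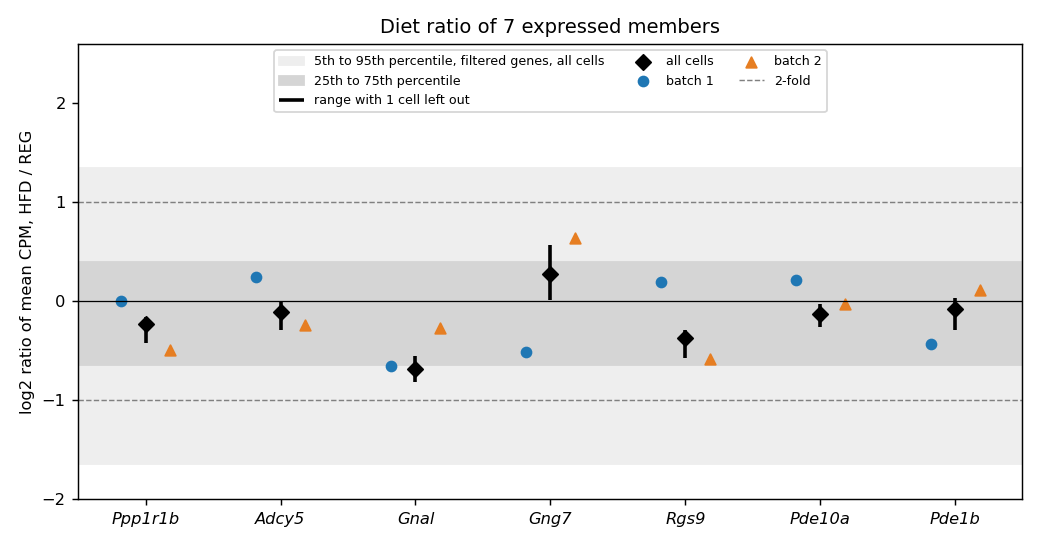
Log2 ratio of mean CPM, HFD over REG, for the 7 expressed members over all cells (black diamonds, with a line for the range when any 1 cell was left out), in batch 1 (blue circles) and in batch 2 (orange triangles). Dark and light bands hold the middle and the wider range of expressed genes over all cells, dashed lines mark a 2-fold ratio, and no member reaches them. *Gnal* is the only member with all points on 1 side of 0.

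Low values were not shared evenly between cells. The summed level of the 7 members ranged from 2089 to 7924 CPM with a median of 4248 in REG cells, and from 477 to 10845 CPM with a median of 3237 in HFD cells. HFD cell 20 was the highest and HFD cell 8, the cell with the highest share of counts on *Lars2*, was the lowest. At least 1 member lay below 50 CPM in 5 REG cells and in 8 HFD cells, a limit set after the values were seen. HFD cell 13 was the only cell with 4 or more members below it. There, *Adcy5* was at 24.2, *Gnal* at 2.91, *Rgs9* at 1.42, *Pde10a* at 0.711 and *Pde1b* at 24.9 CPM, while *Ppp1r1b* was at 760, *Gng7* at 199, *Gad1* at 876 and *Drd1* at 86.0 CPM. Without HFD cells 8 and 13, the log2 ratio was −0.55 for *Gnal*, −0.23 for *Rgs9*, −0.15 for *Ppp1r1b*, 0.02 for *Pde10a*, 0.06 for *Pde1b* and 0.36 for *Gng7*, and 0 of 7 members passed 2-fold. Then 1 HFD cell lay below 50 CPM for *Gnal*, 4 for *Rgs9* and 2 for *Pde10a*, and 6 for at least 1 member. Without all 7 cells that stood apart (20 REG and 16 HFD cells left), the ratio was −0.50 for *Gnal*, −0.21 for *Rgs9*, −0.05 for *Ppp1r1b*, −0.10 for *Adcy5*, −0.15 for *Pde10a*, 0.10 for *Pde1b* and 0.45 for *Gng7*, and again 0 of 7 passed 2-fold. In that set, 0 HFD cells lay below 50 CPM for *Gnal*, 3 for *Rgs9* and 2 for *Pde10a*, and at least 1 member lay below it in 3 REG and 5 HFD cells.

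Over the pooled 43 cells, levels of the members varied together, with *Gng7* apart. All 21 pairs of the 7 members had a Spearman rho of CPM above 0 over the 43 cells, with a median of 0.41 (0.03 to 0.65). Over pairs of the 3873 expressed genes detected in at least 38 cells, the median was 0.07, and 4846009 of 7498128 pairs were above 0. Many of those genes were lower in level than the members, and the part of level in the rho values was not tested. A rho above 0.5 was found in 6 of 21 pairs (28.6%) and in 1.04% of all pairs. These were *Adcy5* with *Rgs9* (0.65), *Ppp1r1b* with *Rgs9* (0.65), *Adcy5* with *Pde10a* (0.63), *Rgs9* with *Pde10a* (0.60), *Ppp1r1b* with *Pde1b* (0.59) and *Ppp1r1b* with *Adcy5* (0.58). Pairs with *Gng7* had a median of 0.17, and pairs without it 0.47. The values are descriptions with no test, since cells share mice, batches, depth and the share of *Lars2* in their totals. With *Lars2* and *Gm19220* taken out of the totals, the median was 0.29 over the members and 0.04 over all pairs, and 20 of 21 pairs were above 0. Without HFD cells 8 and 13 it was 0.33 and 0.05, and without all 7 cells that stood apart 0.34 and 0.04.

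Within each diet and batch, the medians over the member pairs were 0.25 in REG cells, 0.52 in HFD cells, 0.32 in batch 1 and 0.53 in batch 2. The matching medians over all pairs were 0.04, 0.09, 0.03 and 0.09. Member pairs above 0 numbered 19 of 21 in REG cells, 21 in HFD cells, 17 in batch 1 and 21 in batch 2. The lowest values were −0.19, 0.02, −0.21 and 0.20 in the same order. *Adcy5* with *Pde10a* had rho 0.62 in REG and 0.57 in HFD cells, whereas *Ppp1r1b* with *Rgs9* had 0.48 and 0.77, differences that were not tested. Pairs with *Gng7* had −0.21 to 0.24 in batch 1 and 0.20 to 0.37 in batch 2. In batch 2 some other pairs were as low, such as *Gnal* with *Pde10a* (0.26) and *Ppp1r1b* with *Pde10a* (0.32). In REG cells *Gnal* had 0.04 with *Ppp1r1b*, 0.07 with *Adcy5* and −0.01 with *Rgs9*, but 0.40 with *Gng7*. The total count of the cell had a rho of 0.56 with *Ppp1r1b*, 0.39 with *Adcy5* and 0.09 with *Gng7*. The part of depth in the covariation was not tested.

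**Figure D3:**
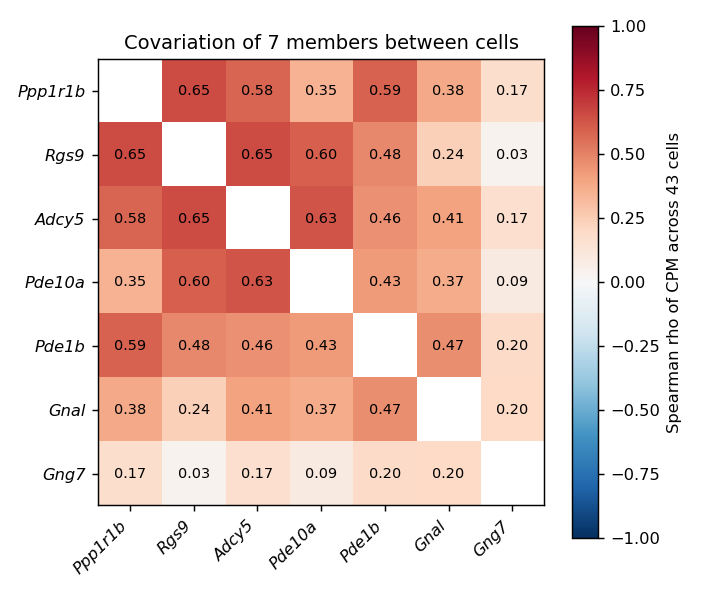
Spearman rho of CPM between each pair of the 7 expressed members over 43 cells, with red above 0 and the value printed in each square. *Ppp1r1b*, *Rgs9*, *Adcy5* and *Pde10a* hold the highest values, up to 0.65, and the row of *Gng7* stays at or below 0.20.

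Other genes varied with single members over the 43 cells. Among those reported here, *Tmem158* and *Nr4a1* had the highest rho with *Ppp1r1b*, both at 0.72. For *Adcy5* they were *Prkcb* (0.70) and *Elmod1* (0.66). For *Rgs9* the closest genes were *Gmcl1* (0.70), *Adcy5* and *Ppp1r1b*, and for *Pde1b* they were *Mmab* (0.63), *Ppp1r1b* and *Prkcb* (both 0.59). For *Pde10a* they were *Mtmr6* (0.73), *Cttnbp2* (0.71) and *Iqgap1* (0.69), and for *Gnal* *Slc7a6* (0.64), *Aplp1* (0.62) and *Cx3cl1* (0.60). Closest to *Gng7* were *Apoe* (0.57), which glial cells express, *Ppp1r9b* (0.54) and *Tuba1c* (0.53). *Tuba1c* had a count in only 19 of the 43 cells. The summed level of 7 microglial markers (*C1qa*, *C1qb*, *C1qc*, *Cx3cr1*, *Tmem119*, *P2ry12* and *Csf1r*) had a rho of 0.39 with *Gng7* and between −0.07 and 0.04 with each of the other 6 members. That sum ranged from 0.341 to 1326 CPM in REG cells and from 2.61 to 1467 CPM in HFD cells, each of the 7 markers had a count in 6 to 30 cells, and its part in the *Gng7* level was not tested.

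The deposited counts and TPM together give a length for the transcripts behind the counts. TPM divides the count of each transcript by its length, so the ratio of the 2 values gives a mean transcript length of a gene in a cell. Each transcript weighs in this mean by its TPM and not by its counts, so a few counts on a short transcript lower it strongly. The mean names a transcript only where it equals the length of a single one. Scaled on genes with a single annotated transcript (204 to 1083 genes per cell), this length lay within 1 base of the annotated length for 96.3% to 98.9% of those genes in each cell. For *Adcy5* the length was 7008 bases in 41 of 43 cells (22 REG, 19 HFD), which is the length of *Adcy5*-201 (1262 codons), whose start lies in the *Adcy5* window. The other cells were REG cell 20 at 6432 bases and HFD cell 18 at 3695 bases, and the only other annotated *Adcy5* transcript is a retained intron of 374 bases.

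*Gnal* was nearly as uniform, at 5223 bases in 38 of 43 cells and at most 5386 bases, in HFD cell 17. No *Gnal* transcript of the annotation used here has that length, and the longest has 5736 bases. For *Gng7* the length was 3362 bases in 24 of 42 cells (14 REG, 10 HFD), that of *Gng7*-201 (69 codons), which starts in the printed window, and no cell lay above it. The transcripts from the second *Gng7* start are longer (3425 and 3433 bases). The remaining 18 cells lay below, down to 1014 bases in REG cell 5 and 1176 bases in HFD cell 10. For *Pde1b* the length was 3218 bases in 21 of 43 cells (10 REG, 11 HFD), that of *Pde1b*-201 (535 codons), and the cells ranged from 2272 to 3327 bases.

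*Rgs9* differed in this respect. Its long coding transcript *Rgs9*-201 has 675 codons and 2434 bases, and in the striatum the long protein form, RGS9-2, is the one known to be made, while the retina makes a shorter form. The length was 2434 bases in 5 cells and within 10 bases of it in 8 cells (4 REG, 4 HFD). It lay lower in 27 cells (12 REG, 15 HFD) and higher in 8 cells (7 REG, 1 HFD). That HFD cell was HFD cell 7, with 4 *Rgs9* counts. Higher values need counts on *Rgs9*-203 (3464 bases, 232 codons), the only longer annotated transcript. The lowest value was 1743 bases, the length of *Rgs9*-202 (449 codons), in HFD cell 13, where *Rgs9* had 1.42 CPM from 2 counts. The median length was 2421 bases in REG cells and 2219 bases in HFD cells, with interquartile ranges of 2063 to 2446 and 1947 to 2425 that overlapped.

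*Pde10a* was the most mixed member. Its lengths ran from 777 to 7687 bases with a median of 2991. They lay above 7000 bases in 9 cells (4 REG, 5 HFD) and below 2100 bases in 14 (7 REG, 7 HFD). The median was 2256 bases in batch 1 and 3973 bases in batch 2, and the level of *Pde10a* in TPM moves with this length. Only 2 annotated transcripts are longer than 7000 bases, *Pde10a*-202 (7769 bases, 796 codons) and *Pde10a*-205 (7630 bases, marked for nonsense-mediated decay). The length was 7630 in 3 cells, of which HFD cell 7 had only 1 *Pde10a* count. No minimum count was set for the lengths of members. *Ppp1r1b* lay between 1196 and 1746 bases with a median of 1459 and matched a single annotated transcript in 0 of 43 cells. Its longest coding transcript has 2001 bases and 194 codons. The split of reads between transcripts that share exons is an estimate of the aligner, and cells with a short library may miss parts of a transcript, which was not tested.

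**Figure D4:**
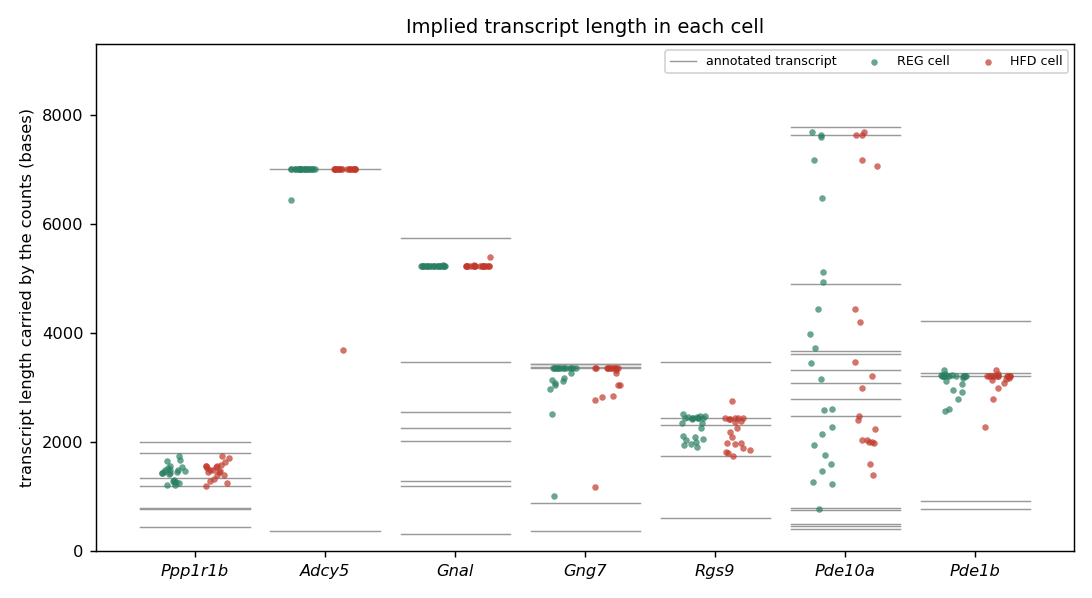
Mean transcript length in bases, weighted by the TPM of each transcript, for the 7 expressed members, with 1 point per cell (REG green, HFD red). Grey lines mark the lengths of the annotated transcripts of each gene. *Adcy5* and *Gnal* hold to a single length in most cells, *Gng7* and *Pde1b* have a main length with cells below it, and *Pde10a* is spread from 777 to 7687 bases.

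The wider pathway was described with lists of 106 genes, of which 105 are in the tables. Without the members, 80 of them were expressed, and 12 of these (15%) passed a 2-fold ratio, 7 higher and 5 lower in HFD cells, beside 23.3% of all expressed genes. Of the 12, 10 had the same sign in both batches. Members left out, 0 of 6 expressed genes passed among G protein alpha subunits, and 0 of 9 among protein kinase A subunits and inhibitors. Among the phosphatases, kinases and relatives of DARPP-32, 0 of 16 passed. Of the chaperones of G protein alpha subunits (*Ric8a* and *Ric8b*) 0 of 2 passed, and of dopamine receptors 0 of 1. Levels here were high for the calcineurin subunit *Ppp3ca* (886 TPM, log2 ratio 0.10) and the DARPP-32 relative *Arpp21* (771 TPM, −0.08). The kinase A subunits *Prkar1b* (167 TPM, 0.27), *Prkar1a* (124 TPM, −0.47) and *Prkacb* (96.5 TPM, 0.30) stood out by level in their own list. Among the remaining lists, the genes of high level included *Rgs2* (279 TPM, −0.08) and *Rgs4* (198 TPM, −0.44), which like *Rgs9* shorten G protein signals, the phosphodiesterase gene *Pde2a* (120 TPM, −0.46), and the G protein genes *Gnai2* (193 TPM, 0.52), *Gnao1* (110 TPM, −0.17), *Gnb5* (163 TPM, −0.44) and *Gnb2* (116 TPM, 0.19). *Gnb5* encodes the beta subunit that binds RGS9. *Rgs9* exceeded *Rgs2* in 20 of 43 cells and *Rgs4* in 21. *Gnal* exceeded *Gnas*, which encodes the general stimulatory subunit, in 27 of 43 cells by TPM. By median TPM *Gnal* was above *Gnas* in REG cells (135 and 72.4) but below it in HFD cells (92.0 and 120). *Gnas* lay just short of the 2-fold limit, with means of 89.1 CPM in REG and 178 CPM in HFD cells. Its log2 ratio was 0.997 (batches 0.84 and 0.71), and ran from 0.75 to 1.22 with any 1 cell left out.

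Adenylyl cyclases other than *Adcy5* made up a list with many large ratios at low levels, since each had a median of at most 3.52 TPM. All 4 on that list that were expressed passed 2-fold, 1 higher and 3 lower in HFD cells. *Adcy3* had means of 62.9 CPM in REG and 14.7 CPM in HFD cells (log2 ratio −2.10, batches −1.97 and −2.42). *Adcy9* had 36.5 and 9.90 CPM (−1.88, batches −0.99 and −2.09), and *Adcy2* had 16 and 41.4 CPM (1.37, batches 2.70 and 0.51). *Adcy1* was at −1.17, with opposite signs in the batches. The calls of *Adcy2* and *Adcy1* rested on single cells: *Adcy2* was at 0.96 without HFD cell 1 and at 0.85 without HFD cell 16, and *Adcy1* was at −0.92 without REG cell 5.

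Among 11 expressed beta and gamma subunit genes other than *Gng7*, 3 were higher and 1 was lower. *Gnb4* had means of 69.6 CPM in REG and 159 CPM in HFD cells (1.19, batches 1.04 and 0.83), *Gng13* had 10.9 and 25.6 CPM (1.23, batches 0.16 and 1.27) and *Gng12* had 6.97 and 19.2 CPM (1.46, batches 2.82 and 0.48). *Gng4* had 25.9 and 2.48 CPM (−3.39, batches −0.86 and −4.30). Of 11 expressed phosphodiesterase genes that are not members 1 passed, *Pde3b*, with 32.6 and 5.08 CPM (−2.68, batches −3.53 and −1.53). Of 7 expressed RGS genes and anchors other than *Rgs9* 1 passed, *Rgs10*, with 28.7 and 71.2 CPM (1.31, batches 2.54 and 0.49). *Creb1*, which encodes a transcription factor phosphorylated by protein kinase A, was the 1 of 8 cAMP-responsive factors, with 24.6 and 63.8 CPM (1.37, batches 0.44 and 1.77). Among 5 other receptors coupled to cAMP, 1 passed, the cannabinoid receptor gene *Cnr1* (1.22), with −1.03 in batch 1 and 3.86 in batch 2. Leaving out 1 cell took *Creb1* to 0.50 and *Cnr1* to −0.08 (HFD cell 19 in both cases), *Gng13* to 0.78 (HFD cell 18) and *Gng12* to 0.91 (HFD cell 1). Of the 12 genes past 2-fold, 6 therefore lost that call with a single cell left out.

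**Figure D5:**
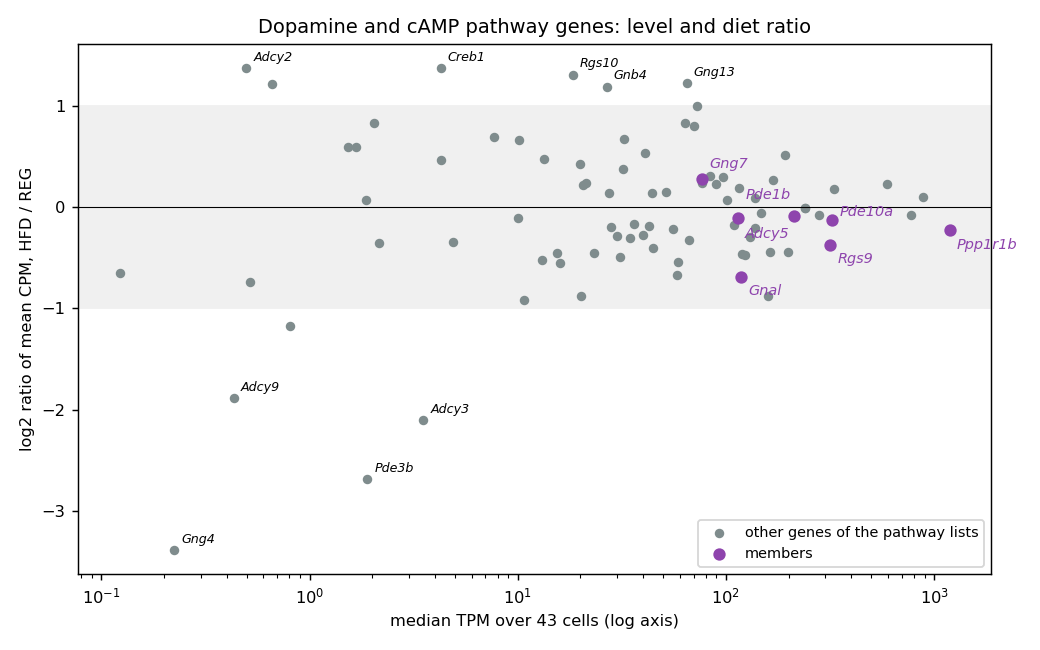
Median TPM over 43 cells (log axis) against the log2 ratio of mean CPM, HFD over REG, for expressed genes of the pathway lists with a median above 0. Members are purple, other genes grey, the band spans 2-fold either way, and genes past it with the same sign in both batches are named. The members sit at the right, between 77.1 and 1188 TPM and inside the band, and the largest ratios belong to genes of low level.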

How the data were processed

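The 43 libraries are NAcLat→VTA cells collected by patch pipette, 23 REG and 20 HFD, grouped by the labels. Reads had been quantified by the authors with kallisto on mouse transcripts (GRCm38) and added up by gene. Of the deposited tables, the first gives raw estimated counts. The second gives TPM, scaled by the authors to 1000000 in every cell. CPM is the estimated count over the total of the cell. Log2 ratios set mean CPM over HFD cells against mean CPM over REG cells, with no pseudocount. Since no mouse is named, no test was made over cells, and Poisson 95% intervals cover counting error only. Where a group had 0 counts, the limit is that of 3 counts.

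The members and gene lists were chosen with earlier results of these data known. Other genes named are those of each list past 2-fold with the same sign in both batches, some of the 3 with the highest median TPM in it, and the 3 genes with the highest rho for each member; *Adcy1*, *Cnr1* and *Gnas*, single cells and the 50 CPM limit were chosen after the values were seen. Transcript lengths used the GENCODE M21 annotation of the same build, scaled on genes with 1 transcript of 1000 to 8000 bases and at least 5 counts. The ratio was tested on simulated data. Alternatives covered TPM, TMM factors (edgeR), size factors (DESeq2), other summaries, each batch, thinning to 150000 counts, other filters and each cell left out. Leaving out HFD cells 8 and 13 together, and leaving out 7 cells (those 2, HFD cell 16 and 4 others with *Drd1*, *Tac1* or *Pdyn* below 10 CPM), were added after the data were seen. Tools were R 4.3.3 with edgeR 4.0.16 and DESeq2 1.42.0, and Python 3.11.15 with pandas 2.3.3, numpy 2.4.6, scipy 1.17.1 and matplotlib 3.10.9. The edgeR coefficients were read as values only. *Gpr52*, on a list, and coordinates of *Gnal* were not analysed here. One gene that the rules would name is not reported here.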

Additional observations from a re-analysis of the deposited data

How the results depend on the processing

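The number of expressed members past 2-fold was 0 with TPM, TMM factors, a filter of 10 cells, either batch alone, an edgeR fit with batch as a term, HFD cells 8 and 13 or 7 cells that stood apart left out, and any 1 cell left out (0 in all 43 cases). It was 1 with DESeq2 size factors (*Gng7*, 1.21), which also moved the median of all expressed genes by 0.32. *Gng7* also passed 2-fold with summed counts over summed totals (1.89). The number past 2-fold was 3 for the difference of mean log2(CPM + 1), which weights the cells near 0 (*Rgs9* −1.30, *Gnal* −1.08 and *Pde10a* −1.07). Without HFD cells 8 and 13 those differences were −0.88, −0.61 and −0.55, without all 7 cells −0.89, −0.46 and −0.99, and the number was 0 in both cases. Without a filter on low values it was 2, *Drd3* and *Drd5*, both counted in REG cells only. All of these were planned except leaving out 2 or 7 cells together. The signs of single ratios were not stable. Among 16 alternatives other than leaving out single cells, the sign turned in 8 for *Adcy5*, 8 for *Pde1b*, 5 for *Pde10a*, 3 for *Ppp1r1b*, 2 for *Rgs9*, 1 for *Gnal* and 1 for *Gng7*. The highest ratio was 1.89 for *Gng7*, from summed counts over summed totals. With 1 cell left out, only *Pde1b* turned (0.04 without REG cell 9). All 7 expressed members stayed detected in at least 90% of cells at a limit of 15 CPM and after thinning. No paired analysis was possible because nothing in the labels ties a REG cell to an HFD cell. The cause of these differences was not tested. The number of cells and the unnamed mice limit every comparison between diets.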

Other observations

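The other marker lists gave these summed levels. The 3 GABAergic markers ranged from 302 to 1422 CPM (median 776) in REG cells and from 102 to 2207 CPM (median 713) in HFD cells. The 5 D1 markers ranged from 837 to 6600 CPM (median 2020) and from 104 to 5685 CPM (median 1854), with the lowest value of all in an HFD cell, and the 5 D2 markers had medians of 17.9 and 13.1 CPM. The 6 markers of all medium spiny neurons had medians of 1366 and 1278 CPM, glutamatergic markers 4.51 and 4.27 CPM, and cholinergic markers 0 and 0 CPM. Other interneuron markers had medians of 13.6 and 19.9 CPM, astrocyte markers 9.57 and 10 CPM, and oligodendrocyte markers 17 and 29.2 CPM. The endothelial list had medians of 259 and 318 CPM, nearly all from *Pecam1*, which had a count in 43 of 43 cells, whereas *Cldn5* and *Cdh5* had one in 1 cell each.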
